A study of Mus musculus with 24 samples.

Results

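The complement set holds 33 genes of components, regulators and receptors, taken by symbol from the 41388 genes counted in 24 RNA-seq libraries of mouse inguinal white adipose tissue. All 33 were found and all 33 passed the filter on low counts that left 19717 genes for testing. Complement is a cascade of plasma and tissue proteins. The classical route starts when C1q binds a target and activates the proteases C1r and C1s, the lectin route starts with collectins and the MASP proteases, and the alternative route runs through factor B, factor D and properdin. All routes cleave C3 and then C5, which yields the anaphylatoxins C3a and C5a and can lead to a membrane attack complex. In fat, complement genes are known to be expressed by adipocytes, stromal cells and macrophages, and liver is the main source of many plasma components.

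All were male mice, per the series title, and all carried floxed alleles of Nr3c2, the mineralocorticoid receptor gene. Controls had no Cre recombinase, and FMRKO mice, the fat cell knockout, carried Adipoq-Cre, whose promoter is active in fat cells, so other cell types of the pad keep the gene. Mice of each genotype were fed chow or a high-fat diet, or were given corticosterone, a glucocorticoid, and each of the 6 groups has 4 libraries. The labels used here state no strain, age, diet composition, dose or duration and no vehicle group, so both treatments were set against chow. The chow libraries are numbered 1, 2, 4 and 5 in controls and 1, 2, 3 and 5 in FMRKO mice, the other groups 1 to 4, and lists of values follow that order. A leading number stands in the titles of all 8 chow libraries and of 0 of the other 16. If it marks a batch, that batch and the chow comparisons cannot be told apart, while corticosterone against high-fat diet uses no chow library.

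Libraries held 17925109 to 40427675 counts. Adipocyte markers such as Adipoq and Plin1 were abundant throughout, with a summed level for 8 genes of 10212 to 29747 CPM, which is a count scaled to library size. Nr3c2 itself was at 14.1 to 28.7 CPM in controls and 7.73 to 25.8 CPM in FMRKO mice, with no overlap of the genotypes on the high-fat diet or with corticosterone and overlap on chow, and the FMRKO difference averaged over conditions was -0.49 ± 0.11 on the log2 scale (adjusted p = 0.287). Some libraries stood apart in neighbouring tissue. Libraries 1 and 3 of chow FMRKO, and libraries 1 and 4 of each genotype on the high-fat diet, were rich in lymph node markers, which summed to as much as 744 CPM against 5.14 to 6.03 CPM in corticosterone controls. Chow FMRKO 5, corticosterone control 2 and high-fat diet control 3 were rich in skeletal muscle markers, up to 12325 CPM. Corticosterone FMRKO 2 and 3 held lymph node marker sums of 61.9 and 54.9 CPM, against 5.71 and 4.25 CPM in the others of that group, and they stayed in the fit that left out the 6 lymph node-rich libraries. That fit kept only chow FMRKO 2 and 5 and libraries 2 and 3 of each high-fat diet group. A member's call that ended when either set of libraries was left out is given with the value of that fit. Fewer libraries enter such a fit, and whether a call ended for that reason was not tested.

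In chow controls the set was led by the central components. Levels per gene length are given as TMM-scaled RPKM, the CPM divided by the gene's length in kilobases. C4b, the mouse C4 gene, was at 379 ± 46.6 RPKM (SD, n = 4) and C3 at 370 ± 89.9 RPKM, a difference smaller than the spread of either gene. Serping1, the C1 inhibitor gene, came next at 137 ± 37.4 RPKM, and its range overlapped those of C1qb at 123 ± 50.8, C1qa at 108 ± 41.3 and C1qc at 91.6 ± 34.5 RPKM. C1ra at 50.3 ± 9.42 RPKM and C1s1 at 47.0 ± 5.6 RPKM, which encode the proteases of C1, were also close to each other. At the low end, Masp1 was at 0.535 ± 0.322 RPKM and Masp2 at 0.550 ± 0.317 RPKM. Over the 45.1% of its exon bases shared with no other gene, Masp2 would be at 1.22 ± 0.703 RPKM if all its reads fell there. Its place in the order is thus uncertain. The 33 genes together took 0.287% to 0.758% of all counts of a library, and C3 and C4b alone took 44.6% to 73.7% of that share.

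**Figure D1:**
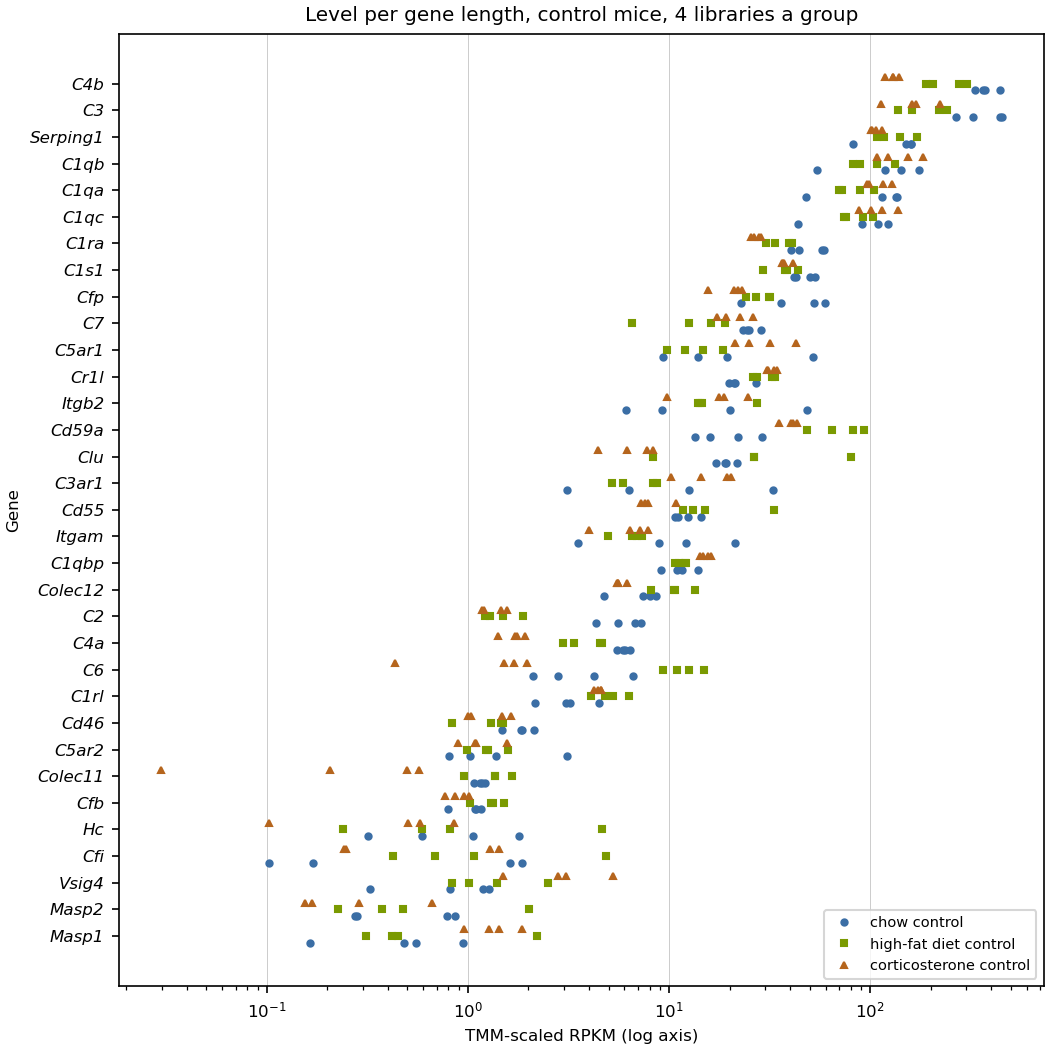
TMM-scaled RPKM (log axis) of the 33 complement genes in the 12 control libraries, ordered by the chow control mean; each point is 1 library, with circles for chow, squares for the high-fat diet and triangles for corticosterone. C4b and C3 lead on chow at 379 and 370 RPKM on average, and Masp1 and Masp2 are lowest there over the whole gene length.

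Changes between conditions were tested with edgeR's quasi-likelihood test, and a gene counts as changed where the Benjamini-Hochberg adjusted p over all 19717 genes is under 0.05. Values given as x ± y below are log2 fold changes with their standard error, and CPM values are TMM-scaled. That standard error is the size of the log2 value divided by the square root of the test's F statistic. On the high-fat diet against chow in controls, 5 members rose and 8 fell, 39.4% of the set, where 29.2% of all genes changed (15.3% higher, 13.9% lower). In FMRKO mice 2 rose and 4 fell, 18.2% of the set, where 24.4% of all genes changed (15.2% higher, 9.18% lower). With corticosterone against chow, 4 rose and 11 fell in controls, 45.5% of the set, where 42.9% of all genes changed (20.2% higher, 22.7% lower). In FMRKO mice 9 rose and 10 fell, 57.6% of the set, where 41.1% of all genes changed (20.2% higher, 20.9% lower). With corticosterone against the high-fat diet, 2 rose and 10 fell in controls, 36.4% of the set, where 24.9% of all genes changed (10.6% higher, 14.2% lower). In FMRKO mice 2 rose and 6 fell, 24.2% of the set, where 15.8% of all genes changed (7.27% higher, 8.49% lower). The median member changed by -0.33 and -0.18 with corticosterone against chow in controls and FMRKO mice, beside medians over all genes of -0.12 and -0.11. C2, C3 and C4a fell on both treatments against chow in both genotypes, and Cd59a rose in the same 4 comparisons. C6 changed in opposite directions, up on the high-fat diet and down with corticosterone, in both genotypes. The comparisons of the treatments with chow share the chow libraries of a genotype. In bulk tissue, fewer cells of a type and less RNA per cell cannot be told apart.

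**Figure D2:**
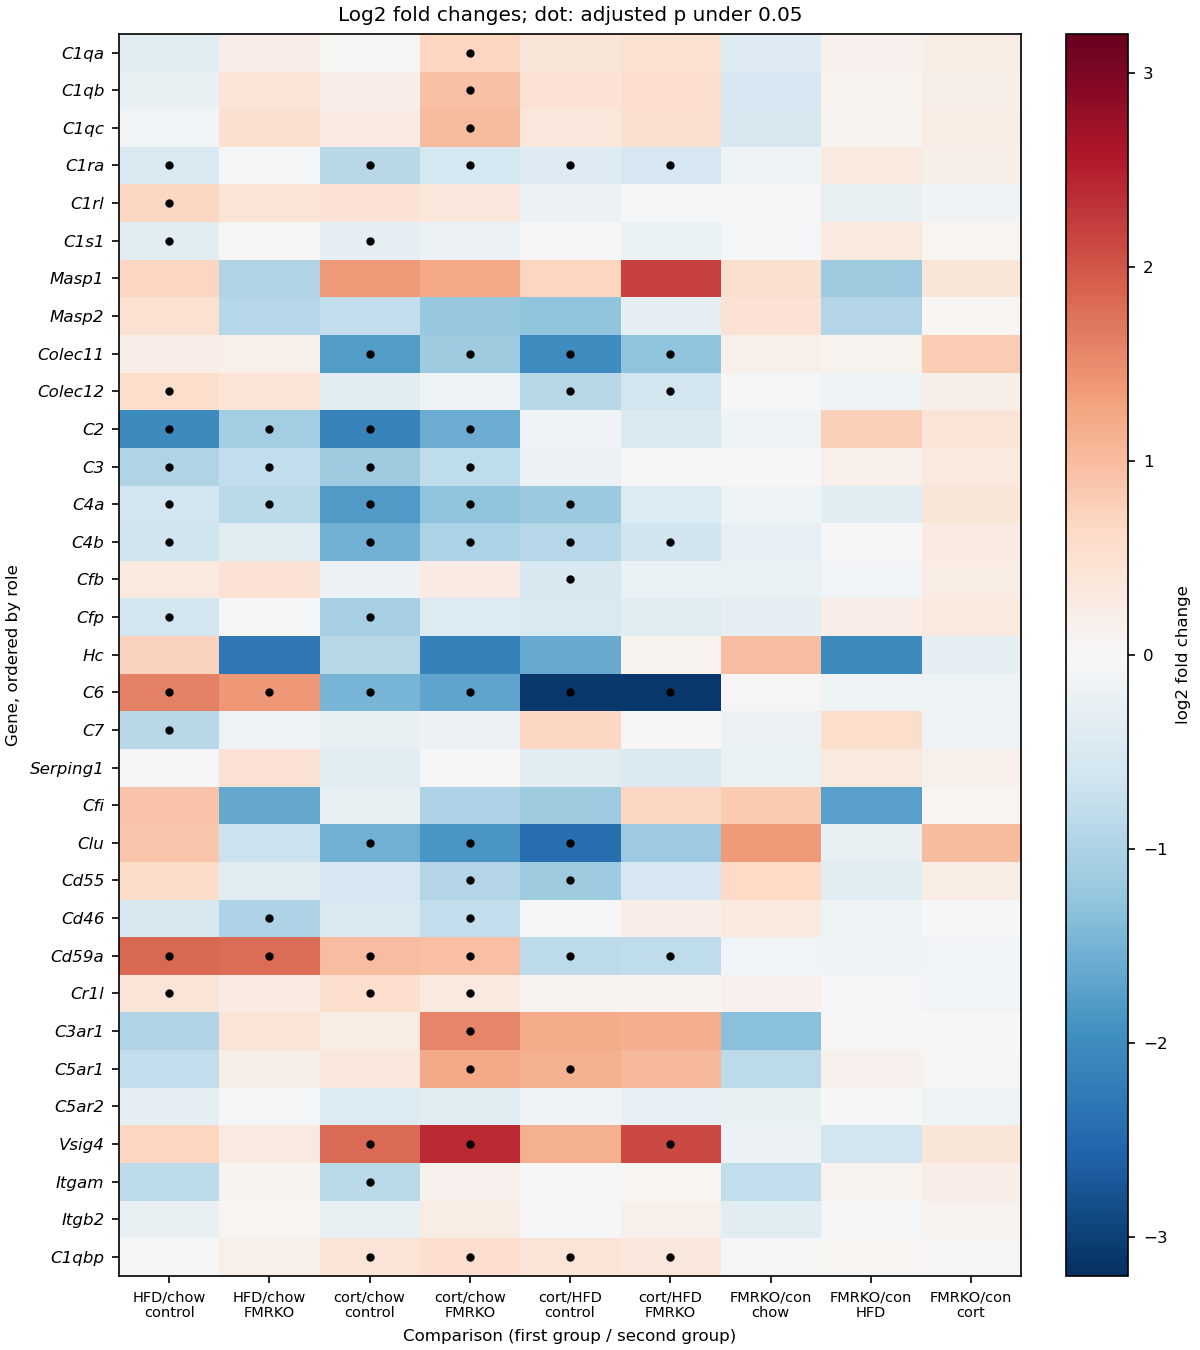
Log2 fold changes of the 33 genes (rows, ordered by role) in 9 comparisons (columns; HFD, high-fat diet; cort, corticosterone; con, control), from blue for lower to red for higher in the first-named group; a dot marks an adjusted p under 0.05. The last 3 columns, FMRKO against control, hold 0 dots, and C6 is red on the high-fat diet and darkest blue with corticosterone against the high-fat diet.

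The C1 complex is built from C1q, whose A, B and C chains are encoded side by side by C1qa (chromosome 4, 136895917 to 136898803), C1qb (chromosome 4, 136880129 to 136886187) and C1qc (chromosome 4, 136889804 to 136893065), all on the minus strand of GRCm38, and from the proteases C1r and C1s. In mouse tissues C1q is known as a product of macrophages. The 3 C1q genes rose with corticosterone against chow in FMRKO mice and in no other comparison. C1qa was measured at 49.7, 139, 118 and 141 CPM in chow controls, 75.3, 109.6, 93.1 and 72.5 on the high-fat diet and 99.8, 121, 103 and 135 with corticosterone. FMRKO libraries held C1qa at 82.2, 92.5, 79.7 and 80.4 CPM with chow feeding, 85.1, 84.6, 95.2 and 119 on the high-fat diet and 124, 173, 111 and 129 with corticosterone. All 4 corticosterone FMRKO libraries lay above all 4 chow FMRKO libraries, while the chow controls spanned the widest range with chow control 1 lowest. C1qb was measured at 59.3, 189, 129 and 156 CPM in chow controls, 89.9, 145, 118 and 96.8 on the high-fat diet and 117, 168, 133 and 200.3 with corticosterone. FMRKO libraries held C1qb at 95.4, 107, 80.3 and 81.9 CPM with chow feeding, 107, 107, 113 and 158 on the high-fat diet and 157, 239, 142 and 165 with corticosterone. The corticosterone FMRKO libraries again lay above chow FMRKO, and the control groups overlapped. C1qc was measured at 84.8, 238, 175 and 209.6 CPM in chow controls, 142, 199.6, 178 and 146 on the high-fat diet and 171, 220.4, 194 and 266 with corticosterone. FMRKO libraries held C1qc at 132, 137, 110.3 and 118 CPM with chow feeding, 151, 161, 178 and 219.9 on the high-fat diet and 229, 335, 210.3 and 234 with corticosterone. Both treated FMRKO groups lay above chow FMRKO, and the control groups overlapped. The increase in FMRKO mice was 0.68 ± 0.23 (adjusted p = 0.021) for C1qa, 0.94 ± 0.26 (adjusted p = 0.007) for C1qb and 1.02 ± 0.23 (adjusted p = 0.001) for C1qc. In controls the same contrast gave 0.03 ± 0.23 (adjusted p = 0.926), 0.21 ± 0.26 (adjusted p = 0.530) and 0.27 ± 0.23 (adjusted p = 0.357). The difference between the genotypes was itself not past the threshold for C1qa (0.65 ± 0.32, adjusted p = 0.836), C1qb (0.73 ± 0.37, adjusted p = 0.848) or C1qc (0.75 ± 0.32, adjusted p = 0.812). C1qa lost its call without corticosterone FMRKO 2 (0.53, adjusted p = 0.090), with lymph node libraries left out (0.69, adjusted p = 0.095) and without the muscle libraries (0.64, adjusted p = 0.067).

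Macrophage markers moved in the same comparison. Of 12 markers, 7 rose and 0 fell with corticosterone against chow in FMRKO mice, where 20.2% of all genes rose and 20.9% fell. Among those 7 were Cd68, by 1.93 ± 0.46 (adjusted p = 0.002), and Lyve1, by 1.46 ± 0.25 (adjusted p = 1.3e-04). In controls 1 marker rose and 1 fell, where 20.2% of all genes rose and 22.7% fell. Their summed level was 796 to 946 CPM in chow FMRKO libraries and 1406 to 1941 CPM in corticosterone FMRKO libraries, against 519.8 to 1801 CPM in chow controls and 1149 to 1642 CPM in corticosterone controls. The part of macrophage content in the C1q values was not tested. On the RPKM scale the C1qb to C1qa ratio was 0.963 to 1.42 across 24 libraries. The C1qc to C1qa ratio was 0.745 to 0.922 in the 8 chow libraries and 0.920 to 1.08 in the other 16.

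**Figure D3:**
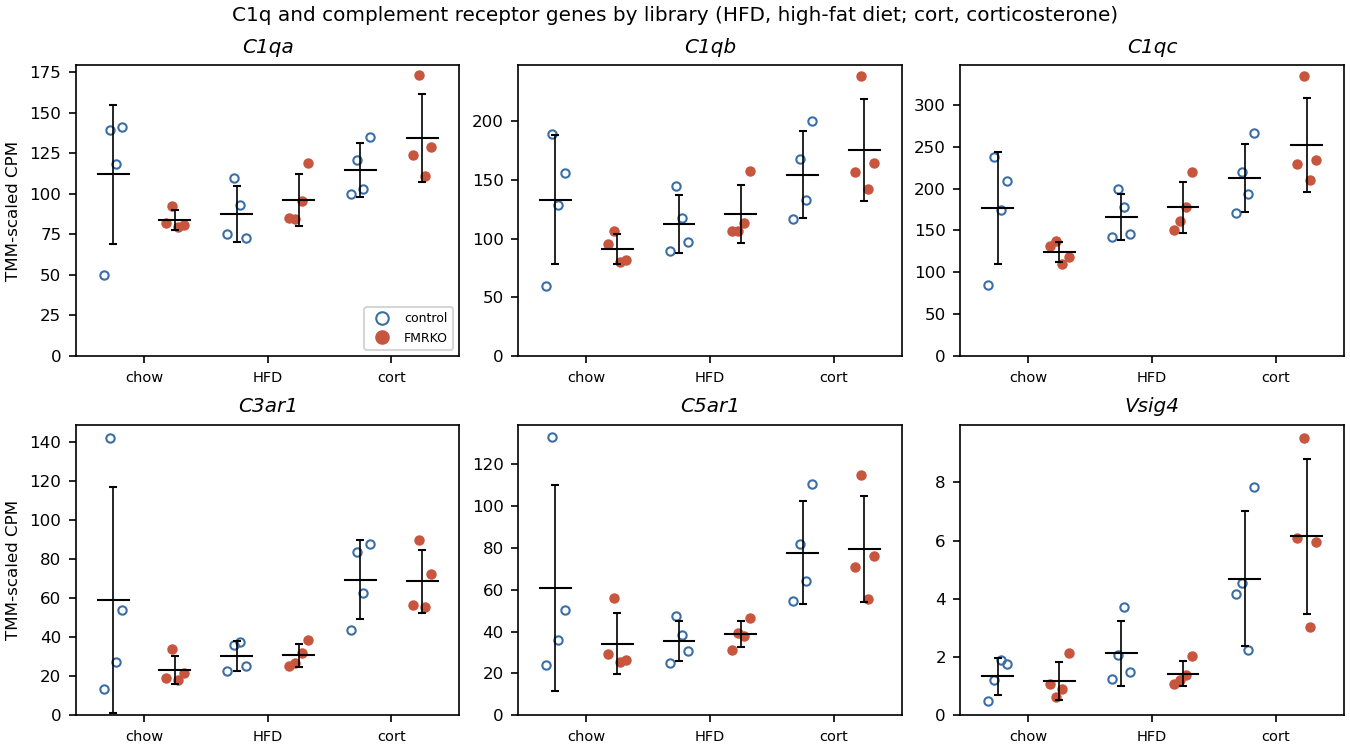
TMM-scaled CPM of 3 C1q genes and 3 receptor genes in the 24 libraries by condition (HFD, high-fat diet; cort, corticosterone) and genotype (open, control; filled, FMRKO); points are libraries, horizontal lines group means and bars the SD, n = 4. For C1qb the corticosterone FMRKO libraries span 142 to 239 CPM and the chow FMRKO libraries 80.3 to 107 CPM, and chow control 2 is highest of its group for C3ar1 at 142 CPM.

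The start regions of C1qb and C1qc are shown because these neighbouring genes moved together, that of C3 because it holds a rare motif match, and those of C6 and Cd59a because both rose on the high-fat diet and then went opposite ways with corticosterone against chow. Each sequence is RefSeq's window from 250 bases before to 50 after the start in GRCm38.p6, 5′ to 3′, with motif matches in capitals.
C1qb (chr4:136886151-136886450, minus strand): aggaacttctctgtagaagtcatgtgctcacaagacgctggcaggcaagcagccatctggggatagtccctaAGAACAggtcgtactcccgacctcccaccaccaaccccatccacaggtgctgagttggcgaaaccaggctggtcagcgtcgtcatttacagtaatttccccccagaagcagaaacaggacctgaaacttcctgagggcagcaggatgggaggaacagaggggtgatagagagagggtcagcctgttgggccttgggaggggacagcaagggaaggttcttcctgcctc
C1qc (chr4:136892865-136893164, minus strand): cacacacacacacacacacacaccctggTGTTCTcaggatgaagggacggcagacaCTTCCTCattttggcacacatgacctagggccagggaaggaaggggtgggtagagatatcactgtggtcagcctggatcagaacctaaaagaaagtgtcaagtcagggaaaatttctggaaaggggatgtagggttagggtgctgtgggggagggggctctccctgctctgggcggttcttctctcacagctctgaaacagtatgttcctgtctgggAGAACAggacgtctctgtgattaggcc
C3 (chr17:57228087-57228386, minus strand): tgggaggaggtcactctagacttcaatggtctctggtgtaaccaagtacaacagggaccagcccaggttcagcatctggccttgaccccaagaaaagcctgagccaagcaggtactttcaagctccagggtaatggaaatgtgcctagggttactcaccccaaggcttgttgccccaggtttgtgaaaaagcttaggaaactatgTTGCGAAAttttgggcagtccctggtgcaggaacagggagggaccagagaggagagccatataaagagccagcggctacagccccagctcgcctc
C6 (chr15:4726960-4727259, plus strand): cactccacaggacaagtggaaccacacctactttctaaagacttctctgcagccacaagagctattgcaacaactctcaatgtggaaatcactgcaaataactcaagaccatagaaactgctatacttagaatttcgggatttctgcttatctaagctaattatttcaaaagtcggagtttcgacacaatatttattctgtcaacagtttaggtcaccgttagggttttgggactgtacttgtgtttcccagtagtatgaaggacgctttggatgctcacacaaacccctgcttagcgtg
Cd59a (chr2:104095551-104095850, plus strand): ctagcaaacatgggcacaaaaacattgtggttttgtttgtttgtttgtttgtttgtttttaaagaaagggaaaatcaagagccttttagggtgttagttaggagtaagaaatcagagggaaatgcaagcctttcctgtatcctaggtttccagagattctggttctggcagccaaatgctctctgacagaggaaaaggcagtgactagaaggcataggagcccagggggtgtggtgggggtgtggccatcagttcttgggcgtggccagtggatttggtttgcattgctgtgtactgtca
RefSeq windows were matched by symbol for 22 of 33 members, 24 windows in all, and searched on both strands for 5 motifs. The full steroid response element, AGAACA and TGTTCT with 3 bases between them, was in 0 member windows and 0.00913% of 32851 windows of the same length. Its half-site AGAACA, which is part of the full element, was in 6 of 24 member windows, which belong to C1qb, C1qc, C1s1 and C5ar2, and 19.0% of all windows. The C/EBP motif TTGCGNAA was in 1 member window, that of C3, and 0.798% of all windows. The STAT motif TTCNNNGAA was in 4 (C1ra, C7, Colec11 and Masp2) and 8.3%, and the PU.1 core GAGGAAG was in 3 (C1qc, C5ar2 and Itgam) and 13.6%. The C6 and Cd59a windows hold none of these letters, and a match is a description of the sequence only.

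The C1 proteases did not follow C1q. C1ra (chromosome 6, 124512632 to 124523440), which encodes C1r, fell with corticosterone in both genotypes, against chow and against the high-fat diet. C1ra was measured at 111, 122, 158 and 162 CPM in chow controls, 92.8, 112, 109 and 84.0 on the high-fat diet and 72.8, 78.7, 77.2 and 70.1 with corticosterone. FMRKO libraries held C1ra at 103, 132, 121 and 149 CPM with chow feeding, 121, 125, 121 and 123 on the high-fat diet and 78.7, 95.5, 89.1 and 75.8 with corticosterone. Every corticosterone group lay below both other groups of its genotype, and the high-fat diet and chow controls touched at 112 and 111 CPM. Corticosterone against chow gave -0.89 ± 0.12 (adjusted p = 1.4e-05) in controls and -0.57 ± 0.12 (adjusted p = 0.001) in FMRKO mice, and corticosterone against the high-fat diet gave -0.41 ± 0.12 (adjusted p = 0.019) and -0.53 ± 0.12 (adjusted p = 0.005). On the high-fat diet C1ra changed in controls by -0.48 ± 0.12 (adjusted p = 0.007), with -0.04 in FMRKO mice (adjusted p = 0.844). C1s1, the C1s gene, had smaller differences. C1s1 was measured at 131, 133, 157 and 166 CPM in chow controls, 118, 137, 121 and 92.1 on the high-fat diet and 115, 129.9, 117 and 115 with corticosterone. FMRKO libraries held C1s1 at 116, 149, 139 and 156 CPM with chow feeding, 139, 154, 144 and 139 on the high-fat diet and 118, 128, 131 and 117 with corticosterone. Corticosterone controls lay just below chow controls, and the FMRKO groups overlapped. C1s1 changed by -0.33 ± 0.11 (adjusted p = 0.027) on the high-fat diet and -0.30 ± 0.11 (adjusted p = 0.027) with corticosterone, both against chow in controls. The C1s1 to C1ra ratio of CPM was 0.995 to 1.19 in chow controls and 1.52 to 1.65 in corticosterone controls, without overlap. In FMRKO mice it was 1.05 to 1.15 and 1.34 to 1.55. C1rl, a C1r-like protease gene, rose on the high-fat diet in controls by 0.66 ± 0.21 (adjusted p = 0.020). C1rl was measured at 13.6, 6.51, 9.67 and 9.25 CPM in chow controls, 15.8, 14.4, 19.0 and 12.3 on the high-fat diet and 13.8, 13.3, 13.8 and 12.7 with corticosterone. FMRKO libraries held C1rl at 8.17, 11.3, 7.15 and 12.8 CPM with chow feeding, 10.6, 15.3, 16.3 and 10.2 on the high-fat diet and 11.9, 11.8, 12.9 and 13.1 with corticosterone. High-fat diet and chow controls overlapped, since chow control 1 was at 13.6 CPM.

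Of 10 lymph node markers 8 rose on the high-fat diet in controls, where 15.3% of all genes rose. When the lymph node libraries were left out, the high-fat diet call ended for C1ra (-0.29, adjusted p = 0.127) and C1s1 (-0.15, adjusted p = 0.275). C1s1 kept its call in 10 of 15 alternative settings on the high-fat diet, where leaving out chow control 4 (-0.29, adjusted p = 0.077) or 5 (-0.29, adjusted p = 0.053) ended it. With corticosterone it kept the call in 8 of 15, and leaving out chow control 4 or 5 or corticosterone control 1, 3 or 4 gave adjusted p = 0.065 to 0.116. In the fit that left out the muscle libraries, C1rl on the high-fat diet was 0.53, adjusted p = 0.061 and C1ra with corticosterone against that diet was -0.35, adjusted p = 0.067, both in controls. C1rl lost its call without chow control 2 (0.49, adjusted p = 0.065) and without high-fat diet control 3 (0.53, adjusted p = 0.065). The call of C1ra against the high-fat diet in controls was lost without corticosterone control 1 or 4 or high-fat diet control 2 or 3 (adjusted p = 0.062 to 0.075). C1ra shares 48.0% of its 50-base runs with its copy C1rb, and C1s1 24.3% with C1s2, so reads of these pairs could be split or lost. In the files C1rb changed by -1.30 ± 0.23 (adjusted p = 1.5e-04) and C1s2 by -0.72 ± 0.21 (adjusted p = 0.008) with corticosterone in controls.

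Among the lectin pathway genes, both collectins were lower with corticosterone than on the high-fat diet. Colec11 (chromosome 12, 28594173 to 28623290) encodes collectin-11, a soluble lectin that binds MASPs, and it was a low-abundance transcript. Colec11 was measured at 1.67, 1.48, 1.62 and 1.58 CPM in chow controls, 1.32, 1.90, 1.88 and 2.28 on the high-fat diet and 0.287, 0.787, 0.0413 and 0.684 with corticosterone. FMRKO libraries held Colec11 at 2.06, 1.17, 1.75 and 2.18 CPM with chow feeding, 1.58, 2.11, 2.33 and 1.91 on the high-fat diet and 0.81, 1.10, 0.882 and 0.464 with corticosterone. Corticosterone libraries lay below those of both other conditions in each genotype. Colec11 changed with corticosterone against chow by -1.79 ± 0.44 (adjusted p = 0.003) in controls and -1.13 ± 0.42 (adjusted p = 0.036) in FMRKO mice, and against the high-fat diet by -2.0 ± 0.44 (adjusted p = 0.002) and -1.28 ± 0.42 (adjusted p = 0.042). In controls the call held in 15 of 15 and 15 of 15 alternative settings. In FMRKO mice it held in 5 of 15 against chow and 4 of 15 against the high-fat diet. In the latter, leaving out any 1 of the 8 libraries gave adjusted p = 0.051 to 0.141. Against chow, leaving out chow FMRKO 1, 3 or 5 or corticosterone FMRKO 1, 3 or 4 gave adjusted p = 0.059 to 0.102. With the lymph node libraries left out the values were -0.98, adjusted p = 0.190 and -1.41, adjusted p = 0.107, and with the muscle libraries left out the value against chow was -1.06, adjusted p = 0.059. Counts were low, from 1 to 30 in corticosterone controls. Colec12, a membrane collectin of vascular and stromal cells, was highest on the high-fat diet. Colec12 was measured at 15.8, 28.6, 24.7 and 26.8 CPM in chow controls, 27.0, 35.5, 44.5 and 35.3 on the high-fat diet and 18.6, 18.6, 18.4 and 20.4 with corticosterone. FMRKO libraries held Colec12 at 24.8, 22.8, 23.2 and 25.3 CPM with chow feeding, 28.1, 26.1, 36.5 and 39.5 on the high-fat diet and 20.3, 19.9, 22.4 and 23.4 with corticosterone. Corticosterone groups lay below high-fat diet groups without overlap, and chow controls overlapped both treated groups. Chow FMRKO lay below high-fat diet FMRKO and overlapped corticosterone FMRKO. Colec12 rose on the high-fat diet against chow in controls by 0.57 ± 0.16 (adjusted p = 0.011) and changed with corticosterone against the high-fat diet by -0.90 ± 0.16 (adjusted p = 4.4e-04) in controls and -0.60 ± 0.16 (adjusted p = 0.014) in FMRKO mice. Endothelial markers moved alike in part: 3 of 6 rose on the high-fat diet in each genotype, where 15.3% and 15.2% of all genes rose. With corticosterone against that diet 5 of 6 fell in each, where 14.2% and 8.49% fell. Sums were 611 to 996 CPM on the high-fat diet and 403 to 544 CPM with corticosterone. Against chow, corticosterone lowered 5 in controls, and lowered 3 and raised 1 in FMRKO mice. Colec12 was not called in those 2 comparisons, nor on the high-fat diet in FMRKO mice. The part of endothelial content was not tested. The Colec12 increase in controls was lost without high-fat diet control 3 (0.43, adjusted p = 0.070) and without all muscle libraries (0.43, adjusted p = 0.084). The FMRKO decrease was lost without corticosterone FMRKO 1 or 2 or high-fat diet FMRKO 3 or 4 (adjusted p = 0.056 to 0.089), and with the lymph node libraries left out (-0.51, adjusted p = 0.082). The proteases Masp1 and Masp2 passed the threshold in 0 of the 12 comparisons. Masp1 was at 2.62 to 5.09 CPM in the 8 corticosterone libraries and at 0.156 to 2.61 CPM in 14 of the other 16, with 6.79 CPM in chow FMRKO 5 and 6.08 CPM in high-fat diet control 3. Masp2 shares 54.9% of its exon bases with Tardbp on the opposite strand, which was at 60.4 to 95.8 CPM.

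Of the 6 components of the C3 and C5 convertases, 0 rose in any of the comparisons of conditions. On the high-fat diet against chow, 5 of 6 fell in controls, where 13.9% of all genes fell, and 3 of 6 in FMRKO mice, where 9.18% fell. With corticosterone against chow 5 of 6 fell in controls and 4 of 6 in FMRKO mice, where 22.7% and 20.9% of all genes fell. C2, C4a, C4b and Cfb lie together on chromosome 17 in the major histocompatibility complex, and C3 elsewhere on chromosome 17. C2 (chromosome 17, 34862604 to 34898265) encodes the protease subunit of the classical and lectin C3 convertase, and it fell most on both treatments among these 6 genes in controls. C2 was measured at 16.7, 26.3, 21.7 and 28.0 CPM in chow controls, 5.76, 7.29, 5.00 and 4.68 on the high-fat diet and 4.52, 5.64, 6.02 and 4.66 with corticosterone. FMRKO libraries held C2 at 13.9, 24.4, 19.1 and 26.4 CPM with chow feeding, 8.19, 12.0, 9.24 and 8.98 on the high-fat diet and 6.19, 8.30, 6.91 and 6.43 with corticosterone. Both treatments lay below chow in each genotype without overlap. On the high-fat diet C2 was 4.08-fold lower in controls, -2.03 ± 0.20 (adjusted p = 4.5e-07), and 2.18-fold lower in FMRKO mice, -1.12 ± 0.20 (adjusted p = 3.1e-04). With corticosterone the values were -2.15 ± 0.20 (adjusted p = 1.5e-07) and -1.59 ± 0.20 (adjusted p = 5.3e-06). These 4 calls held in all 15 alternative settings. C2 shares 42.8% of its exon bases with the read-through model Gm20547, which is listed at 0 in all 24 libraries. How reads in shared exons were assigned is not stated.

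C3 (chromosome 17, 57203970 to 57228136), the protein on which all routes converge, was about as abundant as C4b. C3 was measured at 1372, 1661, 2317 and 2261 CPM in chow controls, 836, 704, 1133 and 1235 on the high-fat diet and 1143, 579.9, 829 and 869 with corticosterone. FMRKO libraries held C3 at 1607, 1855, 1784 and 2279.8 CPM with chow feeding, 1111, 992, 911 and 1313 on the high-fat diet and 1022, 1309, 1053 and 874 with corticosterone. All treated libraries lay below all chow libraries of their genotype, while the treatments overlapped each other. C3 changed on the high-fat diet by -0.96 ± 0.22 (adjusted p = 0.002) in controls and -0.80 ± 0.22 (adjusted p = 0.010) in FMRKO mice, and with corticosterone by -1.15 ± 0.22 (adjusted p = 2.8e-04) and -0.82 ± 0.22 (adjusted p = 0.005). Corticosterone against the high-fat diet gave -0.19 ± 0.22 (adjusted p = 0.543) in controls and -0.02 ± 0.22 (adjusted p = 0.957) in FMRKO mice. C4b (chromosome 17, 34728380 to 34743882), the abundant C4 gene, was ordered from chow through the high-fat diet to corticosterone in controls. C4b was measured at 1905, 2129.8, 2070.4 and 2530 CPM in chow controls, 1171, 1579, 1723 and 1078 on the high-fat diet and 742, 793, 742 and 678 with corticosterone. FMRKO libraries held C4b at 1366, 2012, 1564 and 2210.2 CPM with chow feeding, 1207, 1479, 1579.8 and 1309 on the high-fat diet and 778, 936, 923 and 911 with corticosterone. In controls the 3 conditions did not overlap, and in FMRKO mice corticosterone lay below both others. C4b changed by -0.64 ± 0.16 (adjusted p = 0.005) on the high-fat diet and -1.55 ± 0.16 (adjusted p = 5.1e-07) with corticosterone in controls, and by -1.01 ± 0.16 (adjusted p = 6.4e-05) with corticosterone in FMRKO mice. Against the high-fat diet the corticosterone groups differed by -0.91 ± 0.16 (adjusted p = 3.9e-04) in controls and -0.65 ± 0.16 (adjusted p = 0.008) in FMRKO mice. The high-fat diet value in FMRKO mice was -0.36 ± 0.16 (adjusted p = 0.110). C4a (chromosome 17, 34809092 to 34823464), the less expressed copy of C4, followed C4b at 0.0116 to 0.0193 of its level per length. C4a was measured at 34.2, 37.6, 36.6 and 39.9 CPM in chow controls, 20.9, 28.3, 28.7 and 18.5 on the high-fat diet and 12.0, 10.6, 10.9 and 8.73 with corticosterone. FMRKO libraries held C4a at 22.2, 35.3, 32.0 and 46.5 CPM with chow feeding, 15.8, 20.4, 21.1 and 17.9 on the high-fat diet and 9.83, 12.1, 14.6 and 18.4 with corticosterone. Chow lay above both treatments in each genotype without overlap. C4a changed on the high-fat diet by -0.62 ± 0.20 (adjusted p = 0.023) in controls and -0.86 ± 0.20 (adjusted p = 0.003) in FMRKO mice, with corticosterone by -1.81 ± 0.20 (adjusted p = 1.2e-06) and -1.30 ± 0.20 (adjusted p = 4.7e-05), and with corticosterone against the high-fat diet in controls by -1.19 ± 0.20 (adjusted p = 2.7e-04). The C4a to C4b ratio of CPM was 0.0131 to 0.0138 in high-fat diet FMRKO libraries and 0.0166 to 0.0179 in high-fat diet controls. The 2 genes share 35.2% of their 50-base runs, so part of the C4a count is uncertain.

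**Figure D4:**
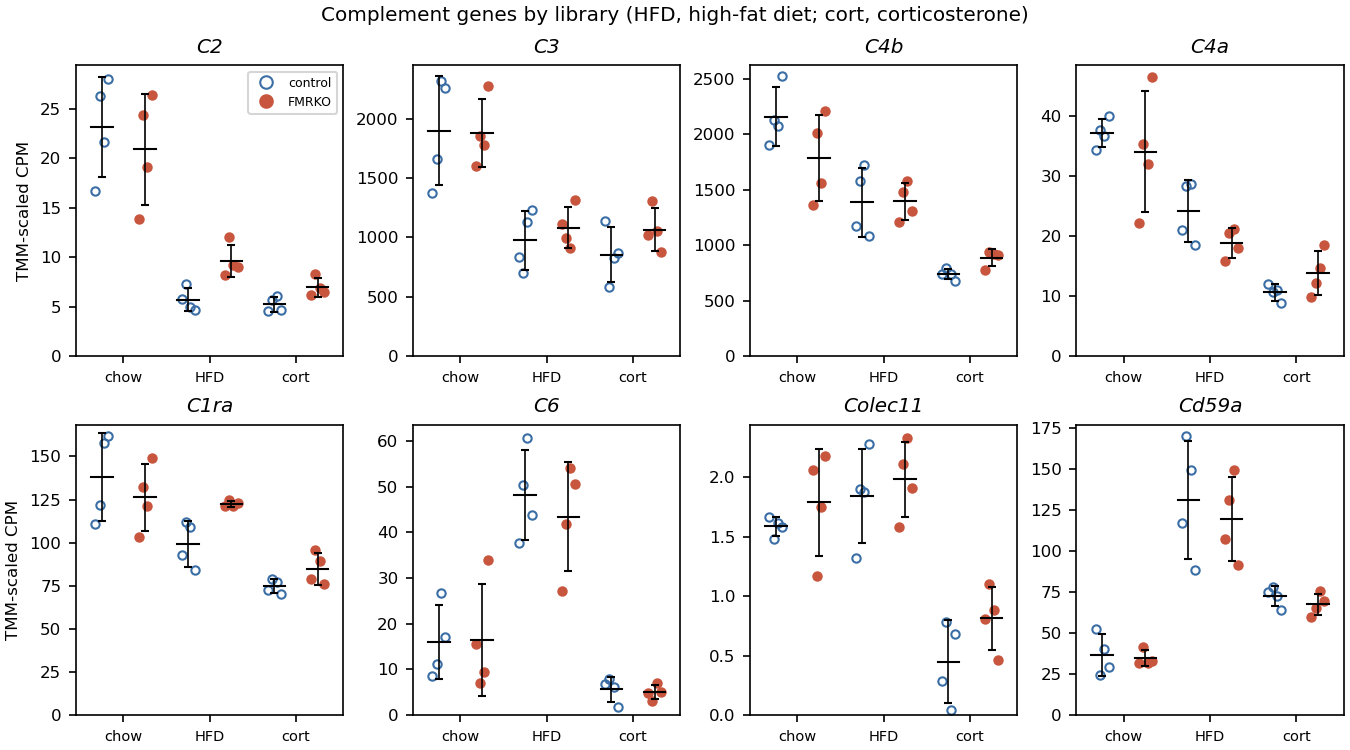
TMM-scaled CPM of 8 complement genes in the 24 libraries by condition (HFD, high-fat diet; cort, corticosterone) and genotype (open, control; filled, FMRKO); points are libraries, horizontal lines group means and bars the SD, n = 4. C2, C3 and C4a lie lower on both treatments than on chow, C6 and Cd59a are highest on the high-fat diet, and corticosterone is lowest for C1ra, C6 and Colec11.

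Cfb (chromosome 17, 34856374 to 34862518), factor B, the protease subunit of the alternative convertase, changed in 1 comparison. Cfb was measured at 3.12, 3.05, 3.28 and 2.25 CPM in chow controls, 3.66, 3.75, 4.27 and 2.88 on the high-fat diet and 2.69, 2.44, 2.85 and 2.18 with corticosterone. FMRKO libraries held Cfb at 2.43, 2.06, 2.17 and 3.39 CPM with chow feeding, 3.87, 3.83, 3.15 and 2.92 on the high-fat diet and 2.65, 3.49, 2.59 and 3.21 with corticosterone. Corticosterone controls lay below high-fat diet controls, with a difference of -0.52 ± 0.18 (adjusted p = 0.040), and the other groups overlapped. The Cfb call held in 4 of 15 alternative settings (adjusted p 0.028 to 0.171), and leaving out any of corticosterone control 1 to 4 or high-fat diet control 1, 2 or 3 ended it, with adjusted p = 0.062 to 0.151. Without the lymph node-rich libraries it was -0.64, adjusted p = 0.066, and without those rich in muscle -0.37, adjusted p = 0.171. Cfb shares 79.5% of its exon bases with Gm20547. Over the 20.5% of bases that are not shared, Cfb would be at 5.04 ± 0.795 RPKM (SD, n = 4) in chow controls if all its reads fell there, against 1.03 RPKM over the whole length. Cfp, which encodes properdin, the stabiliser of that convertase, fell in controls on both treatments. Cfp was measured at 39.5, 104, 62.8 and 91.0 CPM in chow controls, 42.0, 54.3, 47.1 and 55.1 on the high-fat diet and 27.1, 40.1, 36.5 and 38.4 with corticosterone. FMRKO libraries held Cfp at 70.0, 64.5, 49.3 and 56.3 CPM with chow feeding, 51.7, 55.3, 51.3 and 71.0 on the high-fat diet and 41.0, 51.2, 41.9 and 43.3 with corticosterone. Chow controls spanned 39.5 to 104 CPM and overlapped both treated groups. Cfp changed by -0.58 ± 0.21 (adjusted p = 0.041) on the high-fat diet and -1.06 ± 0.21 (adjusted p = 4.2e-04) with corticosterone. The first held in 6 of 15 alternative settings and was lost without chow control 2 (-0.39, adjusted p = 0.171) or 5 or high-fat diet control 1, 2 or 3 (adjusted p = 0.051 to 0.171 over these 5 libraries), and without the muscle libraries (-0.58, adjusted p = 0.091). The second held in 15 of 15. In the fit that left out lymph node libraries, the high-fat diet call in controls was lost for C4a (-0.35, adjusted p = 0.191) and Cfp (-0.51, adjusted p = 0.175), and C4b kept it with a smaller value (-0.35, adjusted p = 0.039). Stromal fibroblast markers also fell with corticosterone. Of 9, 8 fell and 0 rose against chow in controls and 5 fell and 0 rose in FMRKO mice, where 22.7% and 20.9% of all genes fell. On the high-fat diet 2 fell in controls and 1 in FMRKO mice, where 13.9% and 9.18% of all genes fell. The median stromal marker changed by -0.53 and 0.09 on that diet. The summed level of these markers was 5542 to 16461 CPM in chow controls, 4589 to 8471 CPM in high-fat diet controls and 2234 to 5018 CPM in corticosterone controls. In FMRKO mice it was 5247 to 8868, 6551 to 8222 and 2399 to 4472 CPM, so the high-fat diet sums were not below chow there. Col1a1 and Col3a1 held much of these sums, at 1539 to 7725 and 3205 to 7511 CPM in chow controls. In corticosterone controls they were at 614 to 1639 and 944 to 2497 CPM. Dcn overlapped between these groups, at 421 to 731 CPM on chow and 416 to 488 CPM with corticosterone. Of 8 adipocyte markers 4 rose and 0 fell with corticosterone against chow in each genotype, where 20.2% of all genes rose in each. The part of cell composition in these values was not tested.

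The terminal components were not of 1 direction. C6 (chromosome 15, 4727175 to 4815456), a membrane attack complex component, was the member with the widest swing between treatments. C6 was measured at 8.48, 11.3, 26.8 and 17.2 CPM in chow controls, 37.6, 50.3, 60.7 and 43.9 on the high-fat diet and 6.85, 7.93, 6.11 and 1.75 with corticosterone. FMRKO libraries held C6 at 15.5, 7.01, 9.41 and 33.9 CPM with chow feeding, 27.2, 41.9, 54.1 and 50.7 on the high-fat diet and 4.86, 3.14, 7.08 and 5.14 with corticosterone. High-fat diet controls lay above chow controls, and both corticosterone groups lay below their high-fat diet groups without overlap. C6 rose on the high-fat diet by 1.60 ± 0.45 (adjusted p = 0.012) in controls and 1.4 ± 0.45 (adjusted p = 0.027) in FMRKO mice. It changed with corticosterone against chow by -1.48 ± 0.46 (adjusted p = 0.013) and -1.69 ± 0.47 (adjusted p = 0.007). Corticosterone against the high-fat diet gave -3.08 ± 0.48 (adjusted p = 1.3e-04) in controls, 8.45-fold lower, and -3.10 ± 0.48 (adjusted p = 1.6e-04) in FMRKO mice, and these 2 calls held in all 15 alternative settings. The FMRKO increase on the high-fat diet held in 7 of 15 settings and was lost without chow FMRKO 1, 2 or 3 or high-fat diet FMRKO 2, 3 or 4 (adjusted p = 0.054 to 0.088) and with the lymph node libraries left out (1.25, adjusted p = 0.208). The decreases against chow were lost without chow control 4 (-1.11, adjusted p = 0.067) and without chow FMRKO 5 (-1.07, adjusted p = 0.050). C7 (chromosome 15, 4988762 to 5063773), the next component of the complex and a neighbour of C6 on chromosome 15, fell on the high-fat diet in controls. C7 was measured at 63.2, 77.4, 68.0 and 66.3 CPM in chow controls, 34.2, 44.0, 51.5 and 17.8 on the high-fat diet and 71.3, 61.0, 52.3 and 47.1 with corticosterone. FMRKO libraries held C7 at 44.8, 60.8, 48.0 and 87.6 CPM with chow feeding, 53.6, 64.8, 52.4 and 44.4 on the high-fat diet and 59.9, 43.1, 58.8 and 50 with corticosterone. High-fat diet controls lay below chow controls without overlap, and the FMRKO groups overlapped. The C7 decrease was -0.90 ± 0.24 (adjusted p = 0.008) in controls, with -0.16 ± 0.24 (adjusted p = 0.669) in FMRKO mice. It was smaller when lymph node libraries were left out (-0.49, adjusted p = 0.062). The other C7 values with corticosterone were -0.25 ± 0.24 (adjusted p = 0.425) and -0.18 ± 0.24 (adjusted p = 0.562) against chow.

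Hc, the mouse C5 gene, Cfi, the factor I gene whose product cleaves C3b and C4b, and Masp2 were high in the same libraries. Hc was at 41.2 CPM in chow FMRKO 5 and 29.1 CPM in high-fat diet control 3, against 0.642 to 11.2 CPM in the other 22 libraries. Cfi was at 12.2 and 10.1 CPM in those libraries and at 0.211 to 4.11 CPM elsewhere, and Masp2 at 7.40 and 6.64 CPM against 0.357 to 2.84 CPM. The same libraries held the highest sums of 5 liver markers (Alb, Apoa1, Ttr, Fgb and Serpina1a), at 1504 and 1505 CPM, against 9.62 to 809 CPM elsewhere. Both libraries are also muscle-rich, with skeletal muscle marker sums of 12325 and 305 CPM. The other muscle-rich library, corticosterone control 2 at 1728 CPM, held Hc at 3.15, Cfi at 0.499 and Masp2 at 0.551 CPM. The part of liver or muscle transcripts in the Hc, Cfi and Masp2 values was not tested. Hc and Cfi passed the threshold in 0 of 12 comparisons, with log2 values of -3.03 to 0.98 and -2.55 to 0.91, and 0 of 5 liver markers changed in any comparison of conditions. C3 was not highest in these 2 libraries: it was at 2279.8 CPM in chow FMRKO 5 and 1133 CPM in high-fat diet control 3, within the 579.9 to 2317 CPM of the other libraries. Within its group chow FMRKO 5 was highest for C3, against 1607 to 1855 CPM. High-fat diet control 3 lay within the 704 to 1235 CPM of its group.

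**Figure D5:**
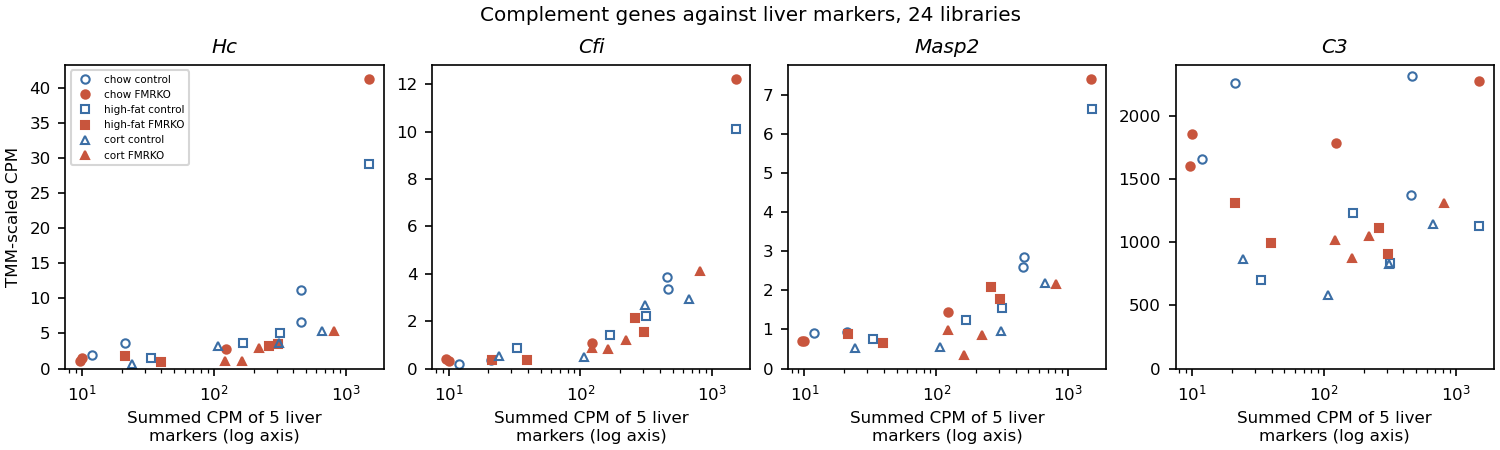
TMM-scaled CPM of Hc, Cfi, Masp2 and C3 against the summed CPM of 5 liver markers (log axis) in the 24 libraries; circles are chow, squares the high-fat diet and triangles corticosterone (cort), open for control and filled for FMRKO. Hc, Cfi and Masp2 are highest in the 2 libraries with liver marker sums of 1504 and 1505 CPM, and C3 is spread over the whole range of the marker sum.

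Of the soluble regulators, Clu (chromosome 14, 65968483 to 65981548), which encodes clusterin, a chaperone that also binds terminal complexes, fell with corticosterone. Clu was measured at 58.9, 75.0, 66.1 and 64.8 CPM in chow controls, 90.7, 28.5, 90.9 and 277 on the high-fat diet and 28.5, 21.2, 26.7 and 15.2 with corticosterone. FMRKO libraries held Clu at 274, 84.9, 196 and 117 CPM with chow feeding, 118, 53.7, 52.1 and 189.6 on the high-fat diet and 20.4, 77.6, 64.7 and 21.3 with corticosterone. Corticosterone lay below chow in each genotype without overlap, and the highest values were in lymph node-rich libraries, 277 CPM in high-fat diet control 4, 274 and 196 CPM in chow FMRKO 1 and 3 and 189.6 CPM in high-fat diet FMRKO 4. Clu changed with corticosterone against chow by -1.53 ± 0.57 (adjusted p = 0.035) in controls and -1.87 ± 0.57 (adjusted p = 0.013) in FMRKO mice, and against the high-fat diet in controls by -2.41 ± 0.59 (adjusted p = 0.005). In the fit that left out lymph node libraries the last 2 were -1.09, adjusted p = 0.095 and -1.37, adjusted p = 0.068. The control value against chow held in 5 of 15 settings and was lost without chow control 2, 4 or 5 or any of corticosterone control 1 to 4 (adjusted p = 0.055 to 0.103), and without the muscle libraries (-1.47, adjusted p = 0.090). The FMRKO value was lost without chow FMRKO 1 (-1.50, adjusted p = 0.053). Corticosterone FMRKO 2 and 3, with the lymph node marker sums of 61.9 and 54.9 CPM, had Clu at 77.6 and 64.7 CPM, against 20.4 and 21.3 CPM in the others of their group. The part of lymph node content in the Clu values was not tested. Serping1, the inhibitor of C1r, C1s and the MASPs, did not pass the threshold in any of 12 comparisons, with log2 values of -0.47 to 0.51. It lay between 190.0 and 414 CPM in the 24 libraries, lowest in chow control 1.

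The membrane regulators, which protect host cells, moved apart from each other. Cd59a (chromosome 2, 104095801 to 104115354), which blocks assembly of the membrane attack complex, rose on both treatments in both genotypes and most on the high-fat diet. Cd59a was measured at 52.6, 24.4, 40.1 and 29.1 CPM in chow controls, 117, 169.6, 149 and 88.2 on the high-fat diet and 75.2, 78.2, 72.8 and 63.9 with corticosterone. FMRKO libraries held Cd59a at 31.6, 41.7, 31.7 and 33.1 CPM with chow feeding, 107, 131, 149 and 91.2 on the high-fat diet and 59.9, 65.3, 75.3 and 69.3 with corticosterone. The order chow, corticosterone, high-fat diet held without overlap in each genotype. Cd59a rose on the high-fat diet 3.58-fold in controls, 1.84 ± 0.21 (adjusted p = 3.0e-06), and 3.46-fold in FMRKO mice, 1.79 ± 0.21 (adjusted p = 5.1e-06). With corticosterone it rose by 0.99 ± 0.21 (adjusted p = 7.8e-04) and 0.97 ± 0.21 (adjusted p = 0.001), and corticosterone against the high-fat diet gave -0.85 ± 0.21 (adjusted p = 0.005) and -0.82 ± 0.21 (adjusted p = 0.009). All 6 calls held in all 15 alternative settings. Cr1l, the mouse gene of Crry, which inactivates C3 convertases, rose by less. Cr1l was measured at 45.2, 35.1, 32.9 and 35.2 CPM in chow controls, 45.5, 55.8, 54.1 and 43.4 on the high-fat diet and 51.0, 57.4, 55.3 and 51.7 with corticosterone. FMRKO libraries held Cr1l at 39.7, 41.7, 42.2 and 38.3 CPM with chow feeding, 46.2, 48.5, 49.4 and 48.2 on the high-fat diet and 50, 56.8, 47.2 and 48.9 with corticosterone. Corticosterone lay above chow in each genotype, and high-fat diet and chow controls overlapped. The Cr1l increase was 0.42 ± 0.09 (adjusted p = 0.002) on the high-fat diet in controls, and 0.54 ± 0.09 (adjusted p = 1.2e-04) and 0.32 ± 0.09 (adjusted p = 0.009) with corticosterone in controls and FMRKO mice. Cr1l shares 16.8% of its 50-base runs with Crry-ps. Cd46, the membrane cofactor protein, is known for low expression outside testis in mice. Cd46 was measured at 5.88, 4.73, 5.92 and 6.82 CPM in chow controls, 2.67, 4.15, 4.66 and 4.79 on the high-fat diet and 5.23, 3.2, 4.74 and 3.34 with corticosterone. FMRKO libraries held Cd46 at 7.06, 5.96, 7.82 and 8.00 CPM with chow feeding, 4.29, 3.83, 2.68 and 3.70 on the high-fat diet and 5.67, 4.20, 3.41 and 3.46 with corticosterone. In FMRKO mice both treatments lay below chow without overlap, with differences of -0.99 ± 0.22 (adjusted p = 0.002) on the high-fat diet and -0.78 ± 0.21 (adjusted p = 0.007) with corticosterone. The control values were -0.52 ± 0.21 (adjusted p = 0.073) and -0.50 ± 0.21 (adjusted p = 0.065). Cd55, decay-accelerating factor, changed with corticosterone against chow in FMRKO mice by -0.94 ± 0.28 (adjusted p = 0.012) and against the high-fat diet in controls by -1.13 ± 0.29 (adjusted p = 0.007). Cd55 was measured at 51.9, 53.9, 60.3 and 70.4 CPM in chow controls, 73.3, 57.3, 64.0 and 162 on the high-fat diet and 36.8, 52.2, 38.0 and 35.1 with corticosterone. FMRKO libraries held Cd55 at 134, 75.3, 84.7 and 70.5 CPM with chow feeding, 68.7, 47.8, 59.0 and 101 on the high-fat diet and 44.8, 39.9, 59.4 and 45.5 with corticosterone. The highest libraries were lymph node-rich, 134 CPM in chow FMRKO 1 and 162 CPM in high-fat diet control 4. Without chow FMRKO 1 the first was -0.67, adjusted p = 0.074, and without high-fat diet control 4 the second was -0.62, adjusted p = 0.076. With all lymph node libraries left out the values were -0.57, adjusted p = 0.017 and -0.56, adjusted p = 0.034.

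Among the receptors, Vsig4 (chromosome X, 96247203 to 96293438), the complement receptor CRIg of tissue-resident macrophages, rose with corticosterone. Vsig4 was measured at 0.482, 1.21, 1.89 and 1.76 CPM in chow controls, 1.23, 2.08, 3.72 and 1.5 on the high-fat diet and 4.16, 4.54, 2.23 and 7.83 with corticosterone. FMRKO libraries held Vsig4 at 1.06, 0.623, 0.905 and 2.13 CPM with chow feeding, 1.06, 1.20, 1.38 and 2.04 on the high-fat diet and 6.08, 9.54, 3.03 and 5.96 with corticosterone. Corticosterone lay above chow in each genotype without overlap. Vsig4 rose by 1.82 ± 0.48 (adjusted p = 0.004) in controls and 2.39 ± 0.49 (adjusted p = 6.3e-04) in FMRKO mice against chow, and by 2.11 ± 0.48 (adjusted p = 0.004) in FMRKO mice against the high-fat diet. The control value against the high-fat diet was 1.13 ± 0.46 (adjusted p = 0.079). Of 12 macrophage markers, 7 rose with corticosterone against chow in FMRKO mice and 1 in controls, where 20.2% of all genes rose in each. The part of macrophage content in the receptor values was not tested. C3ar1, the C3a receptor of myeloid cells, rose with corticosterone in FMRKO mice. C3ar1 was measured at 13.3, 142, 27.3 and 53.8 CPM in chow controls, 22.5, 36.0, 37.4 and 25.4 on the high-fat diet and 43.9, 83.7, 62.5 and 87.6 with corticosterone. FMRKO libraries held C3ar1 at 19.2, 33.8, 18.2 and 21.5 CPM with chow feeding, 25.4, 26.9, 31.7 and 38.4 on the high-fat diet and 56.3, 89.6, 55.7 and 72.6 with corticosterone. FMRKO libraries with corticosterone lay above chow FMRKO libraries, and chow controls spanned 13.3 to 142 CPM, over the whole range of the other groups. C3ar1 rose by 1.56 ± 0.46 (adjusted p = 0.010) in FMRKO mice, with 0.23 ± 0.44 (adjusted p = 0.702) in controls. The FMRKO value when lymph node libraries were left out was 1.36, adjusted p = 0.121. The macrophage marker sum was also highest among chow controls in control 2, at 1801 CPM, and lowest in control 1, at 519.8 CPM. C5ar1, the C5a receptor, had a similar spread. C5ar1 was measured at 23.8, 133, 36.0 and 50.1 CPM in chow controls, 25.2, 47.4, 38.2 and 30.8 on the high-fat diet and 54.6, 82.1, 64.0 and 110.4 with corticosterone. FMRKO libraries held C5ar1 at 29.1, 55.9, 25.4 and 26.5 CPM with chow feeding, 31.3, 39.1, 37.9 and 46.5 on the high-fat diet and 71.0, 115, 55.7 and 76.2 with corticosterone. Chow control 2 was highest at 133 CPM, and corticosterone controls lay above high-fat diet controls. C5ar1 rose with corticosterone by 1.21 ± 0.40 (adjusted p = 0.020) against chow in FMRKO mice and by 1.13 ± 0.40 (adjusted p = 0.042) against the high-fat diet in controls. The calls held in 10 of 15 and 8 of 15 alternative settings. The first was lost without chow FMRKO 3 or 5 or corticosterone FMRKO 2 (adjusted p = 0.052 to 0.073), and the second without corticosterone control 2 or 4 or high-fat diet control 1, 3 or 4 (adjusted p = 0.055 to 0.109). When lymph node libraries were left out they were 1.00, adjusted p = 0.178 and 0.88, adjusted p = 0.308, and without the muscle libraries 1.10, adjusted p = 0.071 and 1.19, adjusted p = 0.089.

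Itgam and Itgb2 encode the chains of complement receptor 3, which binds iC3b on neutrophils and macrophages. Itgam was measured at 22.6, 136, 57.0 and 78.1 CPM in chow controls, 31.6, 47.0, 44.4 and 41.5 on the high-fat diet and 25.4, 50.3, 45.6 and 40.6 with corticosterone. FMRKO libraries held Itgam at 44.3, 52.7, 27.5 and 44.1 CPM with chow feeding, 38.8, 41.9, 43.1 and 54.6 on the high-fat diet and 35.3, 50.6, 42.9 and 56.9 with corticosterone. Chow control 2 was highest at 136 CPM, and the groups overlapped. Itgam changed with corticosterone against chow in controls by -0.86 ± 0.34 (adjusted p = 0.047), a call that held in 3 of 15 alternative settings. Without chow control 2 it was -0.34, adjusted p = 0.395, and it was also lost without chow control 5 or any of corticosterone control 1 to 4 (adjusted p = 0.051 to 0.151). It was -0.81, adjusted p = 0.081 without the lymph node-rich libraries and -0.97, adjusted p = 0.063 without those rich in muscle. Of 7 neutrophil markers 3 fell and 0 rose in that comparison, where 22.7% of all genes fell. Their sums were 30.3 to 57.1 CPM in chow controls and 12.0 to 13.6 CPM in corticosterone controls. Mmp9 held much of these sums, at 19.2 to 31.7 and 4.83 to 10.0 CPM. S100a8 and S100a9 were low and overlapped, at 0.0881 to 0.996 and 0.0881 to 0.482 CPM on chow. With corticosterone they were at 0.143 to 0.945 and 0.248 to 1.2 CPM. The part of neutrophil content was not tested. Itgam shares 72.4% of its 50-base runs with the model Gm49368. Itgb2 passed the threshold in 0 of 12 comparisons, and it lay at 83.5 to 84.8 CPM in high-fat diet control 4, chow FMRKO 1 and high-fat diet FMRKO 4, which are lymph node-rich, and at 148 CPM in chow control 2. C5ar2, the second C5a receptor, was at 2.86 to 11.1 CPM, and it passed in 0 of 12 comparisons. C1qbp, a mostly mitochondrial protein named for binding C1q, rose with corticosterone in all 4 comparisons with other conditions. C1qbp was measured at 39.3, 30.9, 32.9 and 25.9 CPM in chow controls, 34.5, 33.9, 31.6 and 30.1 on the high-fat diet and 44.1, 40.0, 45.6 and 41.6 with corticosterone. FMRKO libraries held C1qbp at 32.5, 30.7, 31.8 and 27.4 CPM with chow feeding, 32.9, 33.4, 35.8 and 34.5 on the high-fat diet and 45.9, 44.8, 41.4 and 44.4 with corticosterone. Corticosterone groups lay above chow and high-fat diet groups without overlap in each genotype. C1qbp changed by 0.41 ± 0.09 (adjusted p = 0.001) in controls and 0.53 ± 0.09 (adjusted p = 1.6e-04) in FMRKO mice against chow, and by 0.40 ± 0.09 (adjusted p = 0.004) and 0.37 ± 0.09 (adjusted p = 0.008) against the high-fat diet. The last ended when lymph node libraries were left out (0.38, adjusted p = 0.058).

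Of 27 other complement genes, 25 were tested. On the high-fat diet against chow 1 rose and 2 fell in controls, and 2 rose and 1 fell in FMRKO mice, which is 12% of the 25 in each, beside 29.2% and 24.4% of all genes. With corticosterone against chow 1 rose and 6 fell in controls, and 1 rose and 5 fell in FMRKO mice, 28% and 24% of the list beside 42.9% and 41.1% of all genes. With corticosterone against the high-fat diet 1 rose and 3 fell in controls, and 1 rose and 1 fell in FMRKO mice, 16% and 8% beside 24.9% and 15.8%. Cfd, which encodes factor D or adipsin, the fat-cell protease that cleaves factor B, was at 11975 to 19289.7 CPM in chow controls and 901 to 2329 CPM in high-fat diet controls. It changed by -3.22 ± 0.35 (adjusted p = 1.3e-06) there and by -1.87 ± 0.33 (adjusted p = 3.3e-04) in FMRKO mice, and with corticosterone by -3.45 ± 0.35 (adjusted p = 3.8e-07) and -2.68 ± 0.34 (adjusted p = 6.2e-06). Cd59b, the paralog of Cd59a, rose by 0.75 ± 0.23 (adjusted p = 0.017) and 0.85 ± 0.23 (adjusted p = 0.009) on the high-fat diet and by 0.99 ± 0.23 (adjusted p = 0.002) with corticosterone in controls. Fcna, ficolin A, a lectin of macrophages, rose with corticosterone in FMRKO mice by 1.93 ± 0.38 (adjusted p = 5.2e-04). Others past the threshold in a comparison included C1rb, C1s2, Cd93, Cr2 and Csmd1, and Cr2, a B cell and follicular dendritic cell gene, is also a lymph node marker here.

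FMRKO against control put 0 of 33 members past the threshold of edgeR's test in each condition, where 0.0101% of all genes passed on chow, 0.0101% with the high-fat diet and 0.00507% with corticosterone. Averaged over conditions 0 members and 0.0355% of all genes passed (0.0254% higher, 0.0101% lower). DESeq2 also called 0 in each, and 7, 4, 1 and 2 members had an unadjusted p under 0.05. C2 on the high-fat diet had the smallest p. C2 levels on that diet were 8.19, 12.0, 9.24 and 8.98 CPM in FMRKO mice and 5.76, 7.29, 5.00 and 4.68 CPM in controls, with no overlap. The difference was 0.76 ± 0.20 (adjusted p = 0.710). In a fit blocked on replicate number it was 0.76, adjusted p = 0.047, but the labels do not state these 8 libraries as pairs. C1ra (0.30 ± 0.12, adjusted p = 1.000) and C1s1 (0.30 ± 0.11, adjusted p = 1.000) were also above controls in every high-fat diet FMRKO library and did not pass. C3ar1 on chow was -1.35 ± 0.46 (adjusted p = 0.288), where chow control 2 was at 142 CPM and the other chow controls at 13.3 to 53.8 CPM. The difference of the FMRKO effect between treatment and chow passed for 0 members and 0% of all genes in both cases, with 7 and 5 members at an unadjusted p under 0.05 for the high-fat diet and for corticosterone. The C2 value on the high-fat diet was 0.90 ± 0.28 (adjusted p = 0.481). So the calls found in 1 genotype, such as the C1q genes with corticosterone or C7 on the high-fat diet, are not shown to differ between genotypes.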

How the data were processed

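Total RNA of inguinal fat was sequenced after ribosomal RNA depletion, per the labels' protocols. For the authors' deposited counts per gene, the submitters' processing notes name STAR 2.5.1a, Subread featureCounts 1.4.6p-5 and the build GRCm38; strand setting, annotation and handling of shared or multiply mapped reads are not stated there. The deposited CPM and RPKM columns matched values recomputed from those counts and entered no test; CPM and RPKM here are scaled by TMM. Counts of 17925109 to 40427675 per library were fitted with edgeR 4.0.16 (R 4.3.3; filterByExpr with a minimum count of 10, TMM, glmQLFit and glmQLFTest, 1 mean per group over all 24 libraries, Benjamini-Hochberg over 19717 genes, threshold 0.05, two-sided). The common dispersion was 0.113 (34% coefficient of variation), and counting error adds to it for genes of low counts. The fit was tested on simulated data with 200 genes changed 2-fold or 4-fold between high-fat diet and chow controls. It recovered 61% of the 2-fold and 88% of the 4-fold changes, and 3 of its 152 calls were false. Changes under 2-fold were not simulated. Labels number the libraries and do not state separate animals, so a p-value here reflects library-to-library spread, which may be technical; 0 pairs within a group agreed within sampling noise. Symbols were from GENCODE M21 (97.3% of genes) and promoter windows from RefSeq. Same-numbered FMRKO and control libraries on the high-fat diet deviated together (r of 0.20 to 0.72 over 4 pairs), though the labels state no pairs. Libraries 1 and 4 of both genotypes were rich in lymph node there. Other sets had at least 1 r of 0.1 or less. The main tests used no pairing, and a block on replicate number was run for every comparison as an alternative only. Alternatives were DESeq2 1.42.0, RLE scaling, no filter, only the groups compared, the replicate block, each replicate left out, and leaving out the libraries rich in lymph node or muscle. All 33 members are named, with Cfd and other complement genes past the threshold, of which 1 is not reported here; values of every library are given for members past it in at least 1 comparison. The members, the lists and the lymph node and muscle libraries were chosen with earlier results of these data known.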

Additional observations from a re-analysis of the deposited data

Results flagged for a closer look

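For each member and group of 4 libraries, a library was set apart where its gap to the nearest other library, over the group's range, was above Dixon's 95% critical value. This held in 19 of 198 groups, and chance alone gives about 1 in 20. Chow FMRKO 5 and high-fat diet control 3 hold many of them. These libraries had the highest liver marker sums and were also muscle-rich. They held Hc at 41.2 and 29.1 CPM and Cfi at 12.2 and 10.1 CPM. Masp1 was at 6.79 and 6.08 CPM there and Masp2 at 7.40 and 6.64 CPM. Cfi was also set apart in corticosterone FMRKO 2 at 4.11 CPM, whose liver marker sum was 809 CPM, and Serping1 in chow FMRKO 5 at 335 CPM. The lymph node-rich libraries held Cd55 at 162 CPM in high-fat diet control 4, and Itgb2 at 83.5 CPM in high-fat diet control 4 and 84.8 CPM in high-fat diet FMRKO 4. C1qb was at 158 CPM in high-fat diet FMRKO 4, against 107 to 113 CPM in the others of its group. Chow FMRKO 2 held Cd59a at 41.7 CPM and C5ar1 at 55.9 CPM. Serping1 was low in chow control 1 at 190 CPM, against 348 to 370.4 CPM. C4b was low in corticosterone FMRKO 1 at 778 CPM, and Colec12 was high in corticosterone control 4 at 20.4 CPM against 18.4 to 18.6 CPM.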

How the results depend on the processing

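No called value of a member turned its direction under any alternative run. Of 73 member values past the threshold, 42 stayed past it in every alternative and 31 were lost in at least 1. The count of members past the threshold for the high-fat diet against chow in controls was 13; it was 6 with only the groups compared and 8 without the lymph node libraries. For corticosterone against the high-fat diet in FMRKO mice it was 8, then 13 and 5. The cause was not tested; fewer libraries enter both fits. With the replicate block, FMRKO against control on the high-fat diet gave 1 member (C2) in place of 0. The other counts with the block were 9, 7, 12, 18, 14 and 11 in place of 13, 6, 15, 19, 12 and 8, in the order of the report, and 0 for the remaining genotype and interaction comparisons. The labels state no pairs in any group, and outside the high-fat diet the libraries share only a number. Leaving out 1 replicate gave 10 to 17, 5 to 8, 12 to 18, 16 to 19, 10 to 13 and 6 to 7 members, and 0 in all genotype and interaction comparisons. DESeq2 gave 14, 7, 16, 19, 15 and 11. RLE scaling moved the median of all genes by at most 0.036 on the log2 scale. Depth limits Colec11, Masp1, Masp2, Cfi, Vsig4, Cfb, Cd46, C5ar2 and Hc, which were below 10 CPM in nearly all libraries.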
